A study of Mus musculus with 4 samples.

Results

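Dense clusters of distal open chromatin were read from the peaks that ATAC-seq called in the control library Ctrl replicate 1. ATAC-seq marks open chromatin by the sites at which Tn5 transposase inserts sequencing adapters. The eligible distal peaks were autosomal, had their summit more than 2 kb from every transcription start site (TSS) of the GENCODE M21 basic set and were under 50% soft-masked, that is, repeat sequence made up less than 50% of their bases. Eligible peaks whose summits lay at most 12500 bp apart were joined, and groups of 4 or more peaks were kept. This gave 244 clusters with 1080 peaks, out of 22736 groups and 28297 eligible peaks. The members were chosen by measured values, the positions of the peaks of Ctrl replicate 1, so values of that library describe them and carry no test. Counts and strengths in the other 3 lists were not used by the rule.

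The libraries came from hippocampi at postnatal day 0 (P0), 2 from cKO and 2 from Ctrl mice. The cKO genotype is labelled Kdm2bEmx1-delta-CxxC: Cre driven by Emx1 is active in dorsal telencephalic progenitors and the neurons and glia they produce, and it deletes the exon for KDM2B's CxxC zinc finger, so vessels, microglia and interneurons in the same tissue keep the exon. Ctrl mice are labelled Kdm2bfl/+ or Kdm2bfl/fl, and the labels do not say which library is which. Peak names in the deposited lists carry prefixes that read like genotypes and differ between the 2 Ctrl libraries, but the labels do not explain them and they were not used. The source field names neural progenitor cells (NPCs), whereas titles and protocol name hippocampus. Nothing in the labels says how many animals stand behind a library, so the spread between libraries may in part be technical.

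Distal open chromatin holds enhancers, the short stretches of DNA where transcription factors bind and from which they act on promoters, often over long distances. Genes that set the identity of a cell tend to lie among many such elements. In the newborn hippocampus, granule and pyramidal neurons are still being made, under transcription factors such as Prox1, Zbtb20, Nfia and Nfib, and Wnt ligands made at the medial edge of the cortex shape the tissue. KDM2B binds unmethylated CpG-rich DNA through its CxxC finger and brings a Polycomb complex there.

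The 4 lists differ widely in length, and Ctrl replicate 2 stood apart. It held 7037 peaks, of which 1164 were eligible, at a mean depth of 3.46 fragments over the genome. Ctrl replicate 1 held 46389 peaks (28297 eligible) at 1.62 fragments, cKO replicate 1 held 21404 (9085 eligible) at 2.07, and cKO replicate 2 held 44535 (26302 eligible) at 1.81. The library with the highest mean depth thus had the shortest list. Scaled depth below is the number of fragments at a summit divided by this mean, so that levels can be set side by side.

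The sequences that carry the results fall into a first set from 1 repeated locus and a second set from clusters near neuronal genes. For the first, the annotated gene of 4.5S RNA (RefSeq name Rn4.5s), a small RNA of rodents made by RNA polymerase III, is shown in its own direction (GRCm38, minus strand, chr6:47654921-47655094, 174 bases). Capitals mark a stretch that resembles box B, an element inside RNA polymerase III promoters, but without the leading G of the longer form searched in the peaks, which was found in 0 of the 19 peaks at this locus. With it stands the summit of the peak next to that gene (plus strand, chr6:47655081-47655201).
Rn4.5s gene: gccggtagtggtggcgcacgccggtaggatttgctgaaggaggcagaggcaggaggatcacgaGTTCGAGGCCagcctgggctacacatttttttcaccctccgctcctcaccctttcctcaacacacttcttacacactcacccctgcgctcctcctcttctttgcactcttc
Summit window beside Rn4.5s: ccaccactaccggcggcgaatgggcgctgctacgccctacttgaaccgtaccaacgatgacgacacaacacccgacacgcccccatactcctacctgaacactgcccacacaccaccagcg

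The second set gives the summit of 8 peaks with 60 bases on either side (GRCm38, plus strand), chosen because they were overlapped in both cKO lists and lie in clusters nearest to genes of Wnt signalling or neuronal transcription factors, or in an enhancer known to act in the forebrain. Capitals mark CAGCTG and CAGATG (E-boxes, bound by basic helix-loop-helix factors), TTGGC (part of the site of NFI factors) and GGGCGG (GC box), each on either strand.
Wnt7b, chr15:85634554-85634674: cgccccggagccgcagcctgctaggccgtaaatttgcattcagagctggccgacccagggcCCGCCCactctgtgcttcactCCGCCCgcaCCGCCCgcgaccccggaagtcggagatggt
Zbtb20, chr16:43534322-43534442: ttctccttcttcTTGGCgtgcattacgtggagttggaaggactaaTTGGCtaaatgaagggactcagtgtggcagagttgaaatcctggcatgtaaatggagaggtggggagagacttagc
Nfib, chr4:82400142-82400262: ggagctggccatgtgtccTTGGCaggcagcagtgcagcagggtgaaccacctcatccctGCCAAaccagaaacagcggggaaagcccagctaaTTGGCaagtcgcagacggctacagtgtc
Auts2, chr5:131573894-131574014: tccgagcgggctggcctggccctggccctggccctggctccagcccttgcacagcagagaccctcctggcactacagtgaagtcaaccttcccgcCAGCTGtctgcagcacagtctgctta
Zbtb18, chr1:177373553-177373673: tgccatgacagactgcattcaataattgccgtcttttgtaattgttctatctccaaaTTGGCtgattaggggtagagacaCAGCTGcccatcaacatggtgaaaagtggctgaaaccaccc
Mef2d, chr3:88138444-88138564: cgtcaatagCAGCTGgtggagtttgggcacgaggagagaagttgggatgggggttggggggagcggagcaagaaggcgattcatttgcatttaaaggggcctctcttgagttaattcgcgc
Gse1, chr8:120425647-120425767: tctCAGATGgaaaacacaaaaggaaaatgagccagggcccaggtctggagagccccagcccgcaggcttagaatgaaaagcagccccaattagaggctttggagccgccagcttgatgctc
Tob1, chr11:94160586-94160706: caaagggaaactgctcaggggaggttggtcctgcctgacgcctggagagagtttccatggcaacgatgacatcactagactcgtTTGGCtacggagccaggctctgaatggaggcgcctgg

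Most clusters were small. Of the 244, 179 held 4 peaks, 43 held 5, 14 held 6, 4 held 7, 1 held 8, 1 held 9 and 2 held 10. Just below the threshold lay 685 groups of 3 peaks. The median cluster spanned 22.4 kb (range 6.73 to 78.8 kb), and its midpoint lay a median of 56.7 kb from the TSS of the nearest protein-coding gene. The longest joined gap was 12499 bp and the shortest gap that was not joined was 12502 bp. Peaks of a cluster were uneven, with the strongest a median of 1.65 times as deep as the cluster's median peak (quartiles 1.34 and 2.13).

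The 2 deepest clusters were not like the others. They lie close together on chromosome 6, 9 peaks nearest to Ezh2 (chr6:47650849-47685819, 73304 bp from its TSS) and 10 peaks nearest to Pdia4 (chr6:47739912-47778687, 54131 bp from its TSS), and neither overlaps a protein-coding gene. Pdia4 encodes a protein disulfide isomerase and Ezh2 the methyltransferase of Polycomb complex PRC2. Within each cluster the summits recur with a median gap of 4324 bp, and 12 of the 17 gaps lay between 4200 and 4400 bp.

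Copies of the 4.5S RNA gene recur with the peaks. A copy of at least 90% identity lay within 1500 bp of 16 of the 19 summits, 11 of the copies were identical to the gene over its 174 bases, and all 16 were on the minus strand. In each of the 16 the summit lay upstream of the start of the copy, by a median of 50.0 bp (range 32.0 to 189). RefSeq annotates Rn4.5s here, but the GENCODE set used for the distance to TSSs does not, so the rule counts these peaks as distal. In the other 242 clusters no peak had a counterpart of 80% identity or more in its own cluster.

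The median depth of these peaks was far above that of clustered peaks in general. Across the 19 peaks the scaled depth in Ctrl replicate 1 was 32.7 to 269 (median 174), against a median of 10.5 over all clustered peaks. Overlapping peaks reached 24.4 to 206 (median 130) in cKO replicate 2 for 19 peaks. For cKO replicate 1 the range was 14.5 to 124 (median 67.7, 18 peaks), and for Ctrl replicate 2 it was 11.5 to 137 (median 28.3, 7 peaks). Ctrl replicate 1 was thus the highest and Ctrl replicate 2 the lowest of the medians, with both cKO libraries between them. The peak with the poorest match to the gene (summit at chr6:47761629, 55.2% identity) had another order, at 85.7 in Ctrl replicate 1 and 137 in Ctrl replicate 2, against 124 and 112 in cKO replicates 1 and 2. Reads from identical copies cannot be placed on 1 copy, and the study's methods state no filter on mapping quality. How far this set the depths was not tested.

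**Figure D1:**
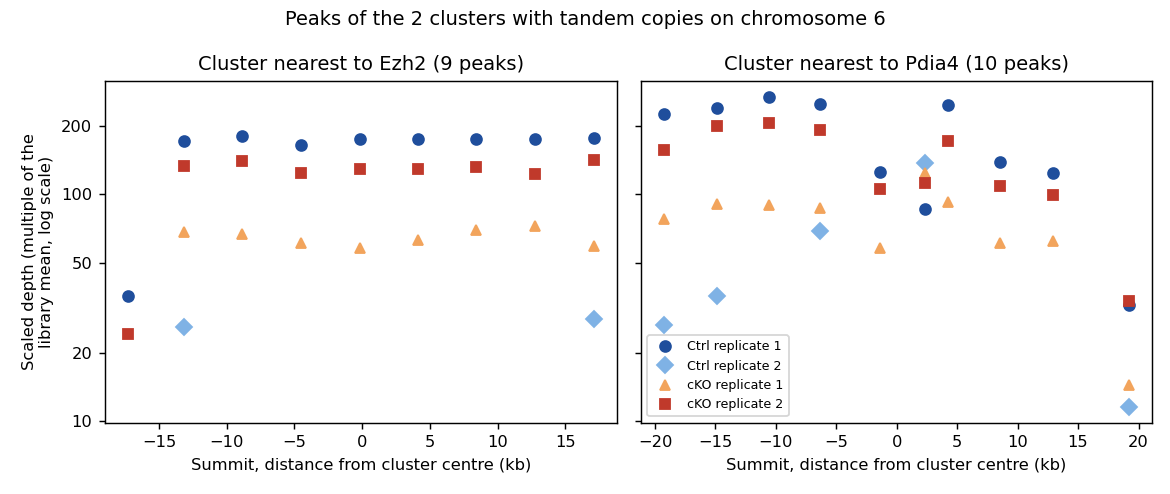
Scaled depth (fragments at the summit over the library's mean depth, log axis) of each peak of the 2 clusters on chromosome 6 against its distance from the cluster centre in kb, with 1 symbol per library and none where a list had no overlapping peak. In the cluster nearest to Ezh2 the 8 peaks on identical copies lie between 164 and 179 in Ctrl replicate 1, between 57.8 and 72.3 in cKO replicate 1 and between 123 and 141 in cKO replicate 2, and 2 of them have a value in Ctrl replicate 2.

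Because most peaks of these 2 clusters lie beside copies of 1 gene, the tests below are given with and without them. The phrase "without the copies" means without any peak from the first base of these clusters to the last, the stretch between them included. In Ctrl replicate 1 this leaves out the 19 peaks of both clusters. For Ctrl replicate 2, cKO replicate 1 and cKO replicate 2 it leaves out 14, 20 and 19 peaks. The exclusion was chosen after the data were seen.

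Outside the copies, the cluster with most peaks lay in introns of Sfxn5 (a mitochondrial transporter of the sideroflexin family), with 10 peaks over 78.8 kb (chr6:85224346-85303101). Their scaled depths in Ctrl replicate 1 ran from 6.16 to 30.8. Of the 10, cKO replicate 2 overlapped 8, cKO replicate 1 overlapped 5 and Ctrl replicate 2 overlapped 0. The deepest peak stood at 30.8 in Ctrl replicate 1, against 28.2 (cKO replicate 2) and 10.1 (cKO replicate 1), so that the cKO libraries lay further from each other than the higher of them from Ctrl replicate 1.

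Next came 8 peaks upstream of Tcf4 (chr18:69124869-69160645, 201389 bp from the TSS), a basic helix-loop-helix factor of neurons that binds E-boxes. A second cluster of 4 peaks lay inside the gene. The upstream cluster held 5 peaks of cKO replicate 2, 2 of cKO replicate 1 and 0 of Ctrl replicate 2. Clusters of 7 peaks lay, among others, in Msi2 (an RNA-binding protein of neural stem cells), in Dclk2 (a microtubule-associated kinase of neurons) and upstream of Nav1 (a microtubule-binding protein of growing neurites). They divided in cKO replicate 1: Msi2 held 4 peaks there, Dclk2 and Nav1 0, while cKO replicate 2 had 7, 4 and 5 in the order Msi2, Dclk2, Nav1. Ctrl replicate 2 had none in any of these 3.

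Among clusters of 6 peaks, those in Kdm4b, a histone demethylase, held 4 peaks of cKO replicate 1 and 5 of cKO replicate 2. In Bahcc1, a chromatin reader, the counts were 3 and 5. The clusters in Dok5, an adaptor of receptor kinases, and in Auts2 each held 2 and 5. The cluster at Upb1, a pyrimidine-degrading enzyme, held 2 and 6.

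The cluster nearest to Wnt7b met the strictest condition of the lists. Wnt7b is a secreted Wnt ligand of the developing cortex and hippocampus. Apart from the 2 clusters of copies, this was the only one of the 244 with a peak in all 3 other lists and at least 4 peaks in each cKO list. Its 4 peaks lie upstream of the gene in intergenic sequence (chr15:85610710-85635064), 40414 bp from the TSS.

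The strongest peak, whose summit is printed above, rested on 77 and 23 fragments in Ctrl replicates 1 and 2, and on 37 and 98 fragments in cKO replicates 1 and 2. As scaled depth these were 47.5, 6.64, 17.8 and 54.2, so each group held a high and a low library and the groups overlap. The other 3 peaks had no counterpart in Ctrl replicate 2. They stood at 22.2, 14.8 and 16.0 in Ctrl replicate 1. Their values were 7.71, 8.68 and 8.20 in cKO replicate 1, and 25.5, 17.2 and 18.8 in cKO replicate 2. Over these 4 peaks cKO replicate 2 lay slightly above Ctrl replicate 1 each time and cKO replicate 1 below it. Within 150 bases on either side of the summits the sequence was GC-rich, at 58.8, 62.1, 75.1 and 71.4%, against a median of 50.2% over all clustered peaks.

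A pair of further clusters lay nearest to genes on the list of Wnt pathway genes, Fzd1 (a Wnt receptor, 101796 bp away, inside Cdk14) and Wnt10a (a ligand, 15795 bp away). The Fzd1 cluster held 4, 0, 2 and 4 peaks in Ctrl replicate 1, Ctrl replicate 2, cKO replicate 1 and cKO replicate 2, and the Wnt10a cluster 4, 0, 0 and 4. The 4 peaks at Wnt10a stood between 8.01 and 11.1 in Ctrl replicate 1, around the median of 10.5 over all clustered peaks there. In cKO replicate 2 they stood between 8.30 and 9.96. Of the 60 genes on that list, 3 were nearest to a cluster, which is 1.23% of clusters against 0.609% of the groups of 1 to 3 peaks.

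**Figure D2:**
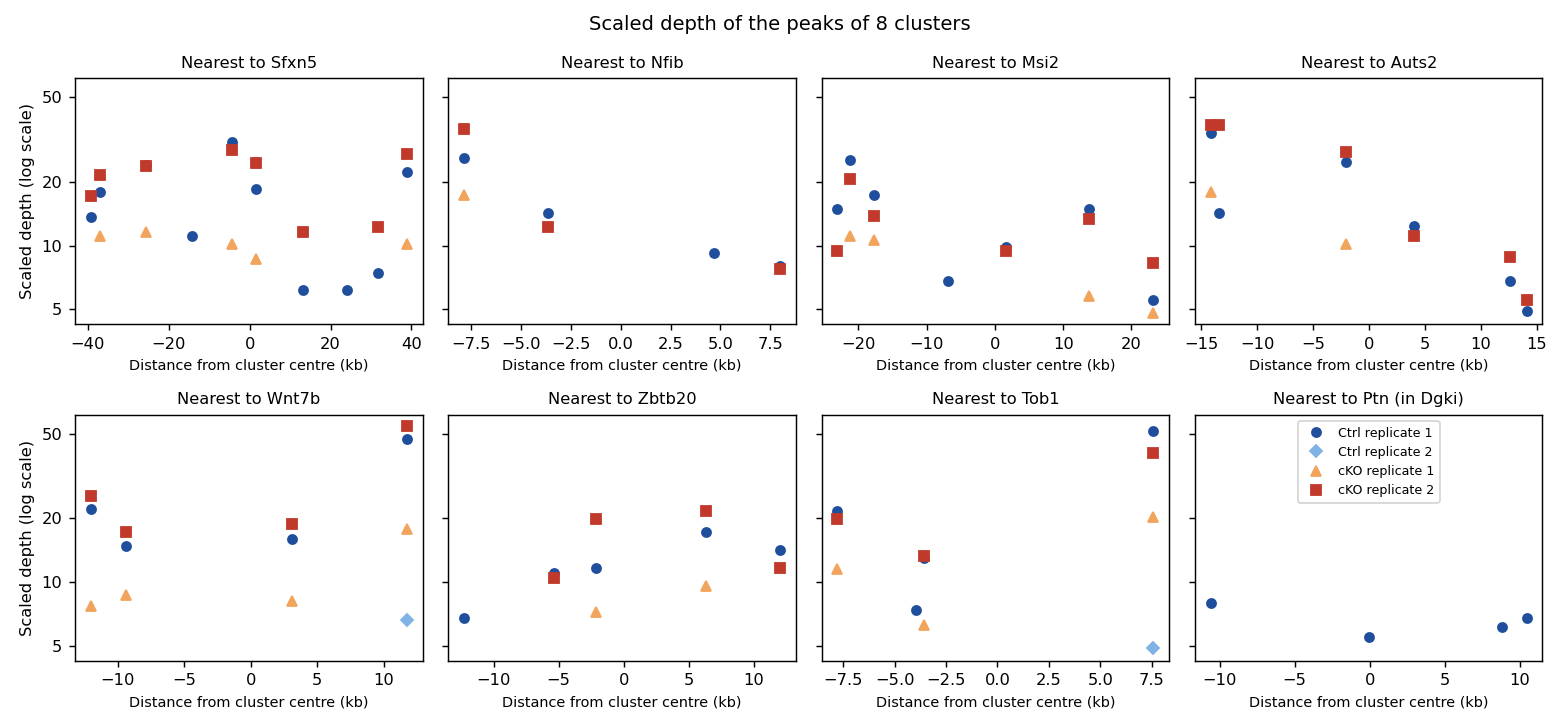
Scaled depth (log axis) of each Ctrl replicate 1 peak in 8 clusters against its distance from the cluster centre in kb, with the overlapping peak of each other library where there was one. At Wnt7b the strongest peak is 47.5 in Ctrl replicate 1 and 54.2 in cKO replicate 2, and at Ptn no other library had a peak.

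Genes on a list of neuronal transcription factors, which also holds the chromatin regulator Auts2, recurred as nearest genes. Of 58 genes on that list, 12 were nearest to 16 clusters, 6.56% of the 244, whereas 1.91% of the 22492 groups of 1 to 3 peaks had such a nearest gene. No test was made of this difference, since the gene lists were drawn up with earlier results known. Each list is a hand-made selection and not a whole class of genes, so here and below its counts hold for its members alone. The 12 were Auts2, Fezf2, Mef2c, Mef2d, Myt1l, Nfia, Nfib, Prox1, Tcf4, Zbtb18, Zbtb20 and Zeb2.

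Auts2, which acts with a Polycomb complex in neurons, had a cluster of 6 peaks and a cluster of 4 in its introns. The deepest peak of the first stood at 33.9 in Ctrl replicate 1, against 17.8 and 37.1 in cKO replicates 1 and 2. Zbtb20, a repressor needed for hippocampal pyramidal neurons, held 5 peaks in introns (chr16:43515602-43540495), with 2 overlapped in cKO replicate 1 and 4 in cKO replicate 2. Its deepest peak stood at 17.3, 9.64 and 21.6 in Ctrl replicate 1, cKO replicate 1 and cKO replicate 2.

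Nfib and Nfia encode NFI factors of progenitors and glia. Nfib held 2 clusters of 4 peaks in its introns (chr4:82399745-82416394 and chr4:82604734-82622724), and in each cKO replicate 1 overlapped 1 peak and cKO replicate 2 overlapped 3. The deepest of them stood at 25.9 in Ctrl replicate 1, against 17.4 and 35.4 in cKO replicates 1 and 2. Its printed summit window holds TTGGC 3 times counting either strand. The window of the strongest peak shared with both cKO lists holds it 1 time in the other Nfib cluster and 0 times at Nfia. At Nfia the cluster lay 3239 bp from a TSS, and 1 of its peaks was overlapped in cKO replicate 1 and 2 in cKO replicate 2.

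Prox1, the factor that marks dentate granule neurons, had a weaker cluster, 92023 bp away in intergenic sequence. Its 4 peaks stood between 4.93 and 12.9 in Ctrl replicate 1, and cKO replicate 2 overlapped 2 of them, cKO replicate 1 none. The clusters at Fezf2 (a factor of deep-layer cortical neurons), Mef2c (a factor of maturing neurons), Zeb2 and both at Myt1l likewise held 0 peaks of cKO replicate 1, beside 4, 2, 2, 2 and 4 of cKO replicate 2. Of all 244 clusters, 55 (22.5%) held 0 peaks of cKO replicate 1.

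Of 43 genes on the list of radial glia and progenitors, 5 were nearest to 5 clusters (2.05%, against 0.640% of groups of 1 to 3), namely Fgfr1, Fgfr2, Gli3, Mycn and Slc1a3. Fgfr1 and Fgfr2 are receptors of fibroblast growth factors, Gli3 transduces hedgehog signals, and Slc1a3 is the glutamate transporter of astroglia. At Gli3 the 5 intronic peaks stood between 7.40 and 18.5 in Ctrl replicate 1. Of them, cKO replicate 1 overlapped 2 and cKO replicate 2 overlapped 4. In Slc1a3, cKO replicate 2 overlapped all 4 peaks and cKO replicate 1 overlapped 1.

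Among the 53 genes on the axon guidance list, 6 were nearest to 6 clusters (2.46% against 1.60%): Ephb1, Nrp2, Plxna2, Robo1, Slit1 and Slit3, which are receptors and ligands that steer growing axons. Each held 1 peak of cKO replicate 1 and 2 to 4 of cKO replicate 2. The 75 genes on the synapse and channel list were nearest to 0 clusters and to 1.53% of the groups of 1 to 3 peaks. Channel and receptor genes outside that list were nearest to clusters, among them Kcnip1, Kcnc4, Grid1 and Cacng5, which were picked after their values were seen. The listed oligodendrocyte, microglia, blood vessel and other-tissue genes were nearest to 0 clusters, and also to few of the groups of 1 to 3 peaks (0.0978, 0.0622, 0.178 and 0.138%), so a count of 0 does not set the clusters apart. The listed interneuron genes were nearest to 1 cluster, at Prox1 (0.410% against 0.271%). The lists for choroid plexus (0.410% against 0.196%) and for Cajal-Retzius cells and the cortical hem (0.410% against 0.253%) had 1 each, the same cluster at Lmx1a. Of its 4 peaks, 2 were overlapped in cKO replicate 2.

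**Figure D3:**
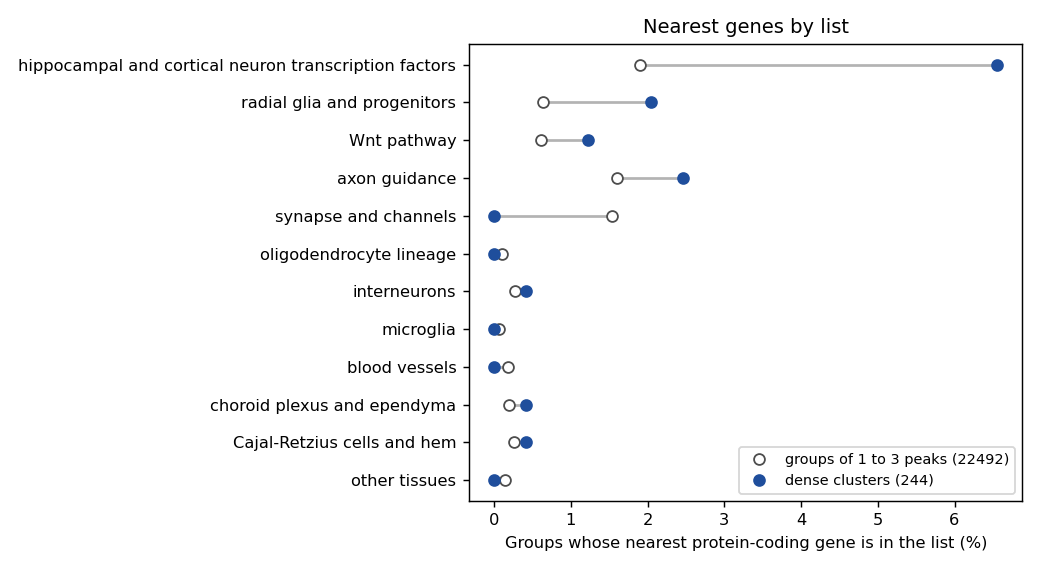
Share of dense clusters (filled, 244) and of groups of 1 to 3 distal peaks (open, 22492) in Ctrl replicate 1 whose nearest protein-coding gene is in each of 12 gene lists. Neuronal transcription factors stand at 6.56% against 1.91%, and the listed synapse and channel genes at 0 against 1.53%.

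Some genes held several clusters. Tcf4, Auts2 and Gse1, among others, were each nearest to 2, and the body of Gse1, a chromatin cofactor gene, overlapped 4, of which 2 were nearest to the TSS of Fam92b. In the 4 clusters over Gse1, cKO replicate 2 had 6, 5, 3 and 5 peaks and cKO replicate 1 0, 4, 2 and 2. All peaks lay in protein-coding genes in 137 clusters, none in 85 and some in 22. Clustered peaks were intronic in 64.5% and exonic in 2.50% of cases, against 50.3% and 3.62% of the 27217 eligible peaks outside the clusters. Intergenic positions made up 33.0% against 46.0%. Distal here holds for the GENCODE basic set alone, since 99 clustered peaks (9.17%, or 8.58% without the copies) lay within 2 kb of a RefSeq transcript start, against 6.06% of the peaks outside the clusters.

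Enhancers with known activity gave a view that the rule did not use. RefSeq lists 617 autosomal enhancers of the VISTA set, which were tested in transgenic mouse embryos, 166 of them active in forebrain. Of the 1080 clustered peaks 17 (1.57%) lay in a VISTA enhancer, against 0.713% of peaks outside the clusters, and 7 (0.648%) in a forebrain enhancer, against 0.283%. These are shares of 1 list, without a test.

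The 7 forebrain peaks lay in clusters that include those nearest to B230118H07Rik (mm1328), Fgfr1 (mm612), Gse1 (mm1674), Tob1 (mm1496) and Cemip2 (mm1610). All 7 were overlapped in cKO replicate 2, 6 in cKO replicate 1 and 1, at Tob1, in Ctrl replicate 2, where the shares of all eligible peaks overlapped in these lists were 69.0, 29.7 and 1.94%. The peak in mm1496 near Tob1, an antiproliferative gene, rested on 84, 17, 42 and 73 fragments in Ctrl replicate 1, Ctrl replicate 2, cKO replicate 1 and cKO replicate 2. That is a scaled depth of 51.8, 4.91, 20.2 and 40.4, again with a high and a low library in each group. At mm1674, in an intron of Gse1, the peak stood at 12.3 in Ctrl replicate 1, against 12.1 and 13.8 in cKO replicates 1 and 2, and its printed window holds CAGATG once counting either strand.

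Base composition and motifs were compared with those of other distal peaks, without a test. Without the copies, median GC was 49.8% in the 1061 clustered peaks and 47.5% in the 27217 outside, and 62.8% in 14583 promoter peaks. CAGCTG was found within 150 bases on either side of the summit in 27.1% of clustered and 26.3% of other distal peaks, CAGATG in 32.9 and 35.1%, and TTGGC in 68.2 and 68.0%. GGGCGG was found in 9.24 and 7.68%, against 58.2% of promoter peaks and 16 of the 19 peaks of the 2 clusters with copies. TAATTA, the core of many homeodomain sites, was found in 13.6 and 17.9%, and AACAATG, a site of SOX factors, in 4.05 and 5.50%. TGACGTCA, the cyclic AMP response element, was found in 1.04 and 0.463%, which is 11 of the 1061 clustered peaks. All motifs were searched on both strands, and a match does not show that a factor was bound.

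The question for the other lists was how much of the clustering they repeat. Ctrl replicate 2 had 33 peaks inside the 244 clusters, cKO replicate 1 349 and cKO replicate 2 823. At least 1 peak of Ctrl replicate 2 was present in 21 clusters, of cKO replicate 1 in 189 and of cKO replicate 2 in 242, whereas among all groups, most of them a single peak, the shares were 2.23, 33.3 and 70.5%. A cluster offers 4 or more positions where a single peak offers 1, so these shares are not comparable in kind. Counts of 4 or more were reached in 1, 14 and 108 clusters.

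Peak by peak, recovery was close to the background. Of the clustered peaks 2.22% (95% Wilson interval 1.5 to 3.29%) were overlapped in Ctrl replicate 2, where the share over all eligible peaks was 1.94%. In cKO replicate 1 it was 31.3% (28.6 to 34.1%) beside 29.7%, and in cKO replicate 2 72.4% (69.7 to 75%) beside 69.0%. All 3 lists overlapped 1.76% of clustered peaks (1.55% of all eligible), none of the 3 overlapped 26.9% (30.1%), and both cKO lists but not Ctrl replicate 2 overlapped 29.0% (27.4%). The intervals cover counting error only.

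Set against the peaks outside the clusters, recovery was higher by 0.29, 1.67 and 3.52 percentage points in Ctrl replicate 2, cKO replicate 1 and cKO replicate 2. The mean difference was 1.83 ± 1.62 (SD, n = 3 libraries), with an exact two-sided sign-flip permutation p of 0.25, the smallest that 3 libraries allow. Without the copies it was 1.08 ± 1.74 (exact permutation p = 0.5), with Ctrl replicate 2 at -0.33. When peaks outside the clusters were weighted to match the clustered peaks in fragment depth at the summit, the mean difference was -0.95 (exact permutation p = 0.5). This match on depth was chosen after the data were seen. With fold enrichment in place of depth the mean difference was 5.40 (exact permutation p = 0.25). The direction thus depended on how peaks were matched.

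In the cKO lists, depth separated the peaks that were found again from those that were not. Among clustered peaks outside the copies, those overlapped in cKO replicate 1 had a median scaled depth of 17.3 in Ctrl replicate 1, and those not overlapped 9.25. For cKO replicate 2 the medians were 12.3 and 6.78. Peaks outside the clusters showed the same order, with 16.6 and 8.01 for cKO replicate 1 and 11.7 and 6.78 for cKO replicate 2. The clustered peaks without an overlap in cKO replicate 1 rested on a median of 15.0 fragments in Ctrl replicate 1.

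**Figure D4:**
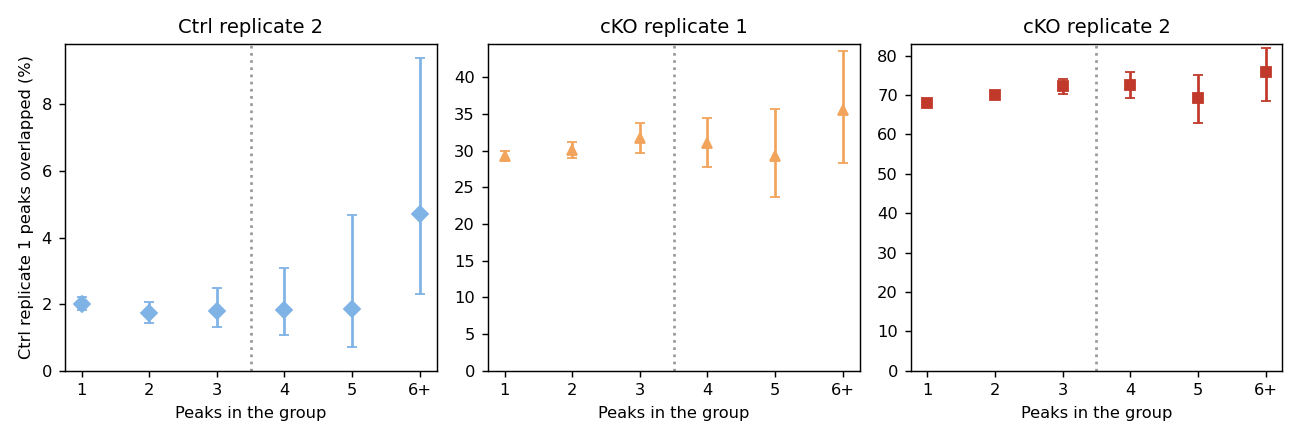
Share (%) of eligible Ctrl replicate 1 peaks overlapped by a peak of each other list, by the number of peaks in their group, with 95% Wilson intervals and a dotted line at the threshold for a dense cluster. In cKO replicate 2 the share is 68.1% for single peaks, 72.6% for groups of 4, 69.3% for groups of 5 and 75.8% for groups of 6 or more, with no steady rise, and the last class includes the 19 peaks of the 2 clusters with copies.

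The strength of peaks was compared inside each list as the percentile by −log10 p among its eligible peaks. Peaks inside the clusters had a higher median than those outside by 13.1 in Ctrl replicate 2 (28 peaks inside), against 2.37 (344 peaks) and 6.0 (809 peaks) in cKO replicates 1 and 2. The mean was 7.16 ± 5.46 (SD, n = 3, exact two-sided sign-flip permutation p = 0.25). Without the copies the values were -4.08, -1.59 and 5.31, with a mean of -0.12 ± 4.86 (exact permutation p = 1), so the higher strength in Ctrl replicate 2 and cKO replicate 1 rested on these 2 clusters.

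There were 2 clusters with no peak of any other list. Of all eligible peaks 30.1% were overlapped in none of the 3, but a cluster offers 4 or more positions, so these are not comparable in kind. The 2 clusters were in Dgki, a diacylglycerol kinase gene (nearest TSS Ptn, a growth factor gene), and in Mast4, a kinase gene (nearest TSS Cd180, a receptor gene of B cells). Their peaks were shallow, on 9 to 13 and 8 to 15 fragments.

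Finally, the rule was applied to each list on its own to set cKO beside Ctrl. No test is given, because Ctrl replicate 1, on which the members were chosen, is 1 of the 4 values. Ctrl replicate 1 gave 244 clusters, Ctrl replicate 2 7, cKO replicate 1 17 and cKO replicate 2 233. Each group thus held a high and a low library. The means were 125 ± 153 clusters in cKO and 125.5 ± 168 in Ctrl (SD, n = 2 each), a difference of -0.5. The share of eligible peaks in such clusters was 3.82%, 3.18%, 0.881% and 3.98% in the same order of libraries. It averaged 2.43 ± 2.19% in cKO and 3.5 ± 0.451% in Ctrl, a difference of -1.07 percentage points. Neither difference exceeded the SD of the cKO replicates, whereas the difference in share exceeded that of the Ctrl replicates.

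**Figure D5:**
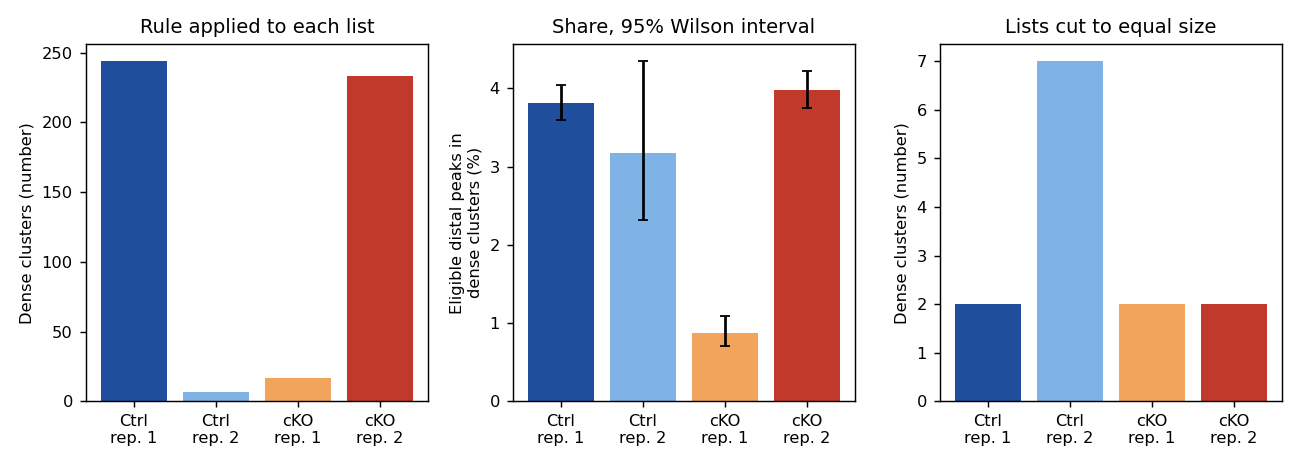
Dense clusters found when the rule is applied to each library's own list (left, number), share of eligible distal peaks in them (middle, %, with 95% Wilson intervals), and clusters when each list was cut to its 1164 strongest eligible peaks (right, number). Uncut lists gave 244, 7, 17 and 233 clusters, cut lists 2, 7, 2 and 2.

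Lists cut to the same 1164 strongest eligible peaks gave 2, 7, 2 and 2 clusters in that order. In Ctrl replicate 1 and both cKO libraries all 17 clustered peaks of the cut list lay in the region of copies, and in Ctrl replicate 2 8 of 37 did. When each list was instead cut to its 7037 strongest peaks of any kind, the share of eligible peaks in clusters was 1.02 and 3.18% in Ctrl replicates 1 and 2, against 0.796 and 0.799% in cKO replicates 1 and 2, a difference of -1.30 percentage points. In that setting both Ctrl values lay above both cKO values, and the Ctrl values lay further from each other than the groups' means. These shares rest on few clusters, 2 and 7 in Ctrl replicates 1 and 2, against 2 and 2 in cKO replicates 1 and 2. Ctrl replicate 1, on which the members were chosen, is 1 of the Ctrl values, so the order carries no test.

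Clusters of different lists met in part. Of the 244 clusters of Ctrl replicate 1, 106 (43.4%) overlapped a cluster of cKO replicate 2, which is 45.5% of the 233 there. The 127 clusters of cKO replicate 2 without such an overlap held a median of 3.0 Ctrl replicate 1 peaks of any kind, eligible or not, with exactly 3 in 55 and 4 or more in 18. Of the 17 clusters of cKO replicate 1, 10 overlapped one of Ctrl replicate 1 and 14 one of cKO replicate 2. Besides the copies, these 10 include those nearest to Gm5089, Wnt7b, Kdm4b, Erich3, Draxin, Tesc and Tmem132b. Draxin, on neither the axon guidance nor the Wnt list, encodes a secreted inhibitor of axon growth and of Wnt signalling. Its 4 peaks in Ctrl replicate 1 reached a scaled depth of 36.4, with 3 overlapped in cKO replicate 1 and 4 in cKO replicate 2. Only 1 of the 7 clusters of Ctrl replicate 2 met a cluster of Ctrl replicate 1, the one nearest to Pdia4.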

How the data were processed

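ATAC-seq was analysed in 4 libraries of P0 hippocampus (2 cKO, 2 Ctrl), grouped by sample title. Per the study's methods and the submitters' processing notes, the authors cut reads to length with Cutadapt, used Bowtie2 for alignment (mm10), took out ENCODE blacklisted regions, filtered out mitochondrial reads with SAMtools, dropped duplicates with Picard, shifted alignments for Tn5 and called peaks with MACS2 2.2.7.1 in each library, with no control library and no pooling. The deposited fold enrichment is the authors' ratio of fragment depth to local background, and the deposited −log10 p and −log10 q are the authors' values from a Poisson test within 1 library, so none was compared between lists. The score that the authors deposited is a display value and was not used.

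Positions are 1-based in GRCm38 (mm10). TSSs came from the GENCODE M21 basic set, masking and sequences from the RefSeq copy of GRCm38, and enhancers and Rn4.5s from RefSeq. Fragments at each summit were recovered from fold and p-value, and a whole number fitted −log10 p within 0.01 for at least 99.986% of the peaks of each list. The lowest background of a list served as its mean depth. A peak was overlapped when a peak of the other list shared at least 1 bp. The nearest gene is the protein-coding gene whose TSS is closest to the cluster midpoint. Copies were aligned with edlib 1.3.9.post1, and tables were made in Python 3.11.15 with pandas 2.3.3 and tested on simulated data.

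Libraries, not peaks, were the units of exact permutation tests, and the test planned for cKO against Ctrl is not given, since Ctrl replicate 1 chose the members. Named clusters were the 12 with most peaks, the 8 with most peaks in the other lists, those with a peak in all lists and 4 or more in each cKO list, up to 3 for each of 12 gene lists, those of the 5 genes nearest to most clusters and up to 3 without peaks elsewhere. Clusters named beside these (nearest to B230118H07Rik, Cemip2, Tob1, Draxin, Gm5089, Erich3, Tesc and Tmem132b, and further genes of the lists) were chosen for enhancers or overlaps after their values were seen. The members and gene lists were chosen with earlier results of these data known. Some clusters that the rule names are not reported here.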

Additional observations from a re-analysis of the deposited data

How the results depend on the processing

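Under other settings the number of clusters in Ctrl replicate 1 was 6 with links of 5 kb, 943 with 25 kb, 929 with at least 3 peaks, 22 with at least 6 and 74 with −log10 q of at least 5. It stayed within 1.5 times of 244 under the other alternatives run. The difference in clusters of each list's own (-0.5) turned positive under most settings: 2.5 with 5 kb, 25 with 3 peaks, 1.0 with 6 peaks, 7.0 and 0.5 with TSS distances of 1 and 5 kb, 8.5 with protein-coding TSSs, 8.0 without the filter on soft-masking, 7.5 under 25% soft-masked, 13 (rounded) with the stricter q and 3.0 with the full GENCODE set. It was -21.5 with 25 kb, -2.5 in equal-size lists and -1.0 without the copies, and ranged from -119 to 118 when 1 library was left out. The difference in share (-1.07) stayed below 0 under the other settings, from -1.30 in equal-size lists to -0.15 without the filter on soft-masking, with -0.28 for 3 peaks. It ranged from -2.62 to 0.479 percentage points when 1 library was left out, above 0 without cKO replicate 1. With the replicate number as a block, the differences were -0.5 clusters and -1.07 percentage points, and the labels tie the numbers to no shared animal or day. The recovery difference (1.83) reversed to -0.092 for clusters built in cKO replicate 2, to -0.95 when matched on summit depth and to -1.19 when matched without the copies. It rose to 24.3 with 5 kb, 5.18 with 6 peaks, 5.65 with the stricter q and 5.40 when matched on fold enrichment, was 1.10 when summits had to lie inside the peak and 1.08 without the copies, and ranged from 0.982 to 2.59 when 1 list was left out. The strength difference (7.16) was -0.12 without the copies, 0.17 under 25% soft-masked, 2.07 with protein-coding TSSs, 3.71 with 25 kb, 4.13 with the stricter q, 15.5 with 6 peaks, 43.1 with 5 kb and 4.18 to 9.55 when 1 list was left out. The settings of 5 kb and 6 peaks held only 34 and 149 clustered peaks, and neither left out the copies. Summits in the clusters with copies had a median gap of 4324 bp, which is below 5 kb. How far the copies set the values in these settings was not tested. The exclusion of the copies, the match on summit depth and the full GENCODE set were chosen after seeing the data. The causes of these shifts were not tested.

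With 2 libraries a group, the smallest p possible is 0.33, and with 3 lists it is 0.25. Peak lists hold only what passed each library's own threshold, so a missing peak does not show closed chromatin. Ctrl replicate 2, with 7037 peaks of which 1164 were eligible, overlapped 24 of the 1080 clustered peaks, and the cause of this low number was not tested. Clusters were defined in 1 control library alone. The nearest gene is a matter of distance and shows no regulation.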
